A study of Mus musculus with 8 samples.

Results

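State 2 is 1 of the 42 numbered cell states in a reference map of early mouse development, and it has been labelled late primitive streak. It was chosen by its number, as the column headed 2 in a deposited table of cluster centres, and it was compared first with states 37, 12, 26 and 5 and then with the other 41 columns. A cluster centre is the authors' single value for a gene in a group of similar cells, and it is called the level here. The table gives a level for each of 712 genes. Levels in state 2 ran from 0.00033 to 1.45 with a median of 0.079.

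The cells came from wild-type mouse embryos of 5 stages, the first at embryonic day 6.5 and the last at day 8.5, with outer extraembryonic tissue kept where possible. Oocytes of B6D2F1 females were injected with sperm of B6/CAST F1 males, and the embryos grew in CD-1 surrogate females. Embryos of a stage were pooled, 4 to 10 in each pool, and sequenced as 8 droplet libraries of polyA RNA. Day 7.5 has libraries labelled 1 and 2, and days 8.0 and 8.5 each have libraries labelled 1a and 1b. The other stages have 1 library each. The table names no library, stage, cell number or depth for any state. Every level is therefore a single value without replicate error, no test was possible, and a difference of 0.5 or more was counted as higher or lower. The states were formed from the expression of the same cells, so differences between them describe the map and are not independent evidence for it.

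The primitive streak is the furrow at the posterior of the embryo through which epiblast cells leave the epithelium and become mesoderm or endoderm. Cells that pass through it early form extraembryonic and heart mesoderm, and cells that pass later form lateral and paraxial mesoderm of the trunk. Nodal, Wnt, Fgf and Bmp signals drive the passage, Snail factors release the cells from the epithelium, and T-box factors such as T, Eomes and Tbx6 direct their fate. The Cdx factors and, in order along each cluster, the Hox genes then give the mesoderm its position on the head-to-tail axis.

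The 5 markers given for state 2 (Mesp1, Phlda2, Aldh1a2, Pou5f1 and Cdx1) were the 5 genes that lay furthest above the mean of the other states. They were chosen on this state, so this is a description. Of 12 measured genes of a primitive streak list, 7 lay more than 1 SD above their mean over the 42 states, against 64 of all 712 genes (8.99%). The same held for 11 of 14 nascent mesoderm genes and 11 of 15 genes of paraxial and presomitic mesoderm. These counts include given markers: Cdx1 in the streak list, Mesp1 in the nascent list and Aldh1a2 in the paraxial list. Mesp2, Tbx6, Hes7 and Pcdh19, each over 1 SD above its mean, are in both mesoderm lists, so the lists are not independent. By the median of the standardised levels state 2 ranked 2nd of 42 for nascent mesoderm (1.60), 3rd for paraxial mesoderm (1.31) and 5th for primitive streak (1.07). Streak genes were thus present, but the mesoderm lists scored higher, and the cells are called state 2 below.

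By the same lists, state 37 scored highest for nascent mesoderm, with Mesp1, Lefty2 and Tdgf1 leading it. The best list of a state was taken without the short lists of Cdx genes (3 measured) and of metallothionein and stress genes (2). The best list of state 26 was then that of neuromesodermal progenitors, the bipotent cells of trunk spinal cord and paraxial mesoderm. State 31 scored higher for that list (2.63 against 2.28). For the Cdx list state 26 had the highest score of all states (2.37). The best list of state 5 was allantois and extraembryonic mesoderm, for which state 15 scored higher. State 12 had trunk Hox genes as its best list and was led by Phlda2, Hoxaas3 and Cdx4, and it is left unnamed.

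The promoters of Mesp1, Phlda2 and Aldh1a2 are shown because these 3 genes lay furthest above the mean of the other states and were high together in state 2. Their sequences, from RefSeq on GRCm38.p6, run from 250 bases before to 50 bases after the start that the RefSeq table uses, 5′ to 3′ on the gene's strand. They lie at chr7:79793541-79793840 (minus strand), chr7:143502475-143502774 (minus strand) and chr9:71215539-71215838 (plus strand). Capitals mark matches, on either strand, to CTTTGAT (Tcf/Lef), TCACACC (T-box), ATTTGCAT (the octamer bound by Pou5f1) and CACCTG (the E-box bound by Snail factors).
Mesp1: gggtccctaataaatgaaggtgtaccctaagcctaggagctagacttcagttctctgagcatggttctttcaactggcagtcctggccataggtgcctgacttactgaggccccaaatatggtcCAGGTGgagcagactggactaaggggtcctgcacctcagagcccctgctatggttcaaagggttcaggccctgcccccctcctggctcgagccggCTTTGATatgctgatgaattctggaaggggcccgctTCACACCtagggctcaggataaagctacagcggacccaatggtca
Phlda2: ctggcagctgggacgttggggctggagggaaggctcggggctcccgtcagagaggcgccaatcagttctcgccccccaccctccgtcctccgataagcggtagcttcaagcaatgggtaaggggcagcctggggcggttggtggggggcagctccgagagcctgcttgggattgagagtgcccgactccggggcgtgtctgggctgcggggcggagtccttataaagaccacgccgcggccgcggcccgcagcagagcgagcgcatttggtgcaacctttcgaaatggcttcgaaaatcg
Aldh1a2: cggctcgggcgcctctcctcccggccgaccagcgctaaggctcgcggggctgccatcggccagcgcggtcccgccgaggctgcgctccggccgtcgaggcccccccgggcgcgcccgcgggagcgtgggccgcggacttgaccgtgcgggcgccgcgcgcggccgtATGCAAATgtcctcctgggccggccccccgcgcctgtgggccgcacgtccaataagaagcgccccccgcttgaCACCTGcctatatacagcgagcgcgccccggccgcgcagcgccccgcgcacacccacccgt

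The window of Mesp1 held a Tcf/Lef match whose first base is at -31, an E-box at -126 and a T-box match at 6, counted from the RefSeq start at 79793590. That of Aldh1a2 held an octamer at -84 and an E-box at -11, and that of Phlda2 held none of the 4 motifs. The GENCODE M21 start used for gene positions here is the same for Aldh1a2 but lies 198 bases further upstream for Mesp1 and 626 for Phlda2, so by that annotation the matches of Mesp1 from -126 onwards lie inside the gene. These motifs were taken because genes for factors that bind them (Lef1, T, Tbx6, Pou5f1 and Snai1) were high in state 2. Of the 20 leading genes, 16 had a promoter in the table. A gene was counted if any of its promoters held the motif, whereas the share of all promoters is per promoter. A Tcf/Lef match occurred in 1 of the 16 genes, against 3.73% of all 32851 promoters and 3.85% of the 493 measured genes with a promoter. In the same order, a T-box match occurred in 1 (3.98% and 5.27%), an octamer in 1 (1.74% and 3.45%) and an E-box in 7 (20.2% and 27.2%). None of the matches overlapped another in the sequences shown, and a match is a description of the letters only.

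The leading genes of state 2 combined first mesoderm, Wnt and posterior genes with single genes of the pluripotency list (Pou5f1 and Tdgf1). In all, 10 of 712 genes (1.4%) exceeded the average over the remaining 41 columns by 0.5 or more, and none (0%) lay 0.5 under it. Mesp1, the transcription factor of the first mesoderm and of heart progenitors (chromosome 7, 79792241 to 79793788), stood at 0.90 in state 2. It was at 1.20 in state 37, 0.28 in state 12, 0.091 in state 26 and 0.15 in state 5, and the median of the 41 other states was 0.026. State 2 was second only to state 37, and state 3 followed at 0.59.

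Phlda2, an imprinted gene that restrains placental growth, stood at 1.45, with 1.29 in state 37, 1.41 in state 12, 0.67 in state 26 and 1.52 in state 5. It was thus shared with all comparators other than state 26, and its highest level was in state 28 (1.60). Ifitm1, an interferon-induced membrane protein gene of the posterior embryo, had a similar spread, at 1.21 against 1.02, 1.19, 0.81 and 0.92 in states 37, 12, 26 and 5. Rspo3, which encodes a secreted enhancer of Wnt signalling, was at 0.84 against 0.44, 0.61, 0.60 and 0.45. State 2 was above all 4 comparators in Rspo3 and Ifitm1, and for Ifitm1 the gap to state 12 was small.

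**Figure D1:**
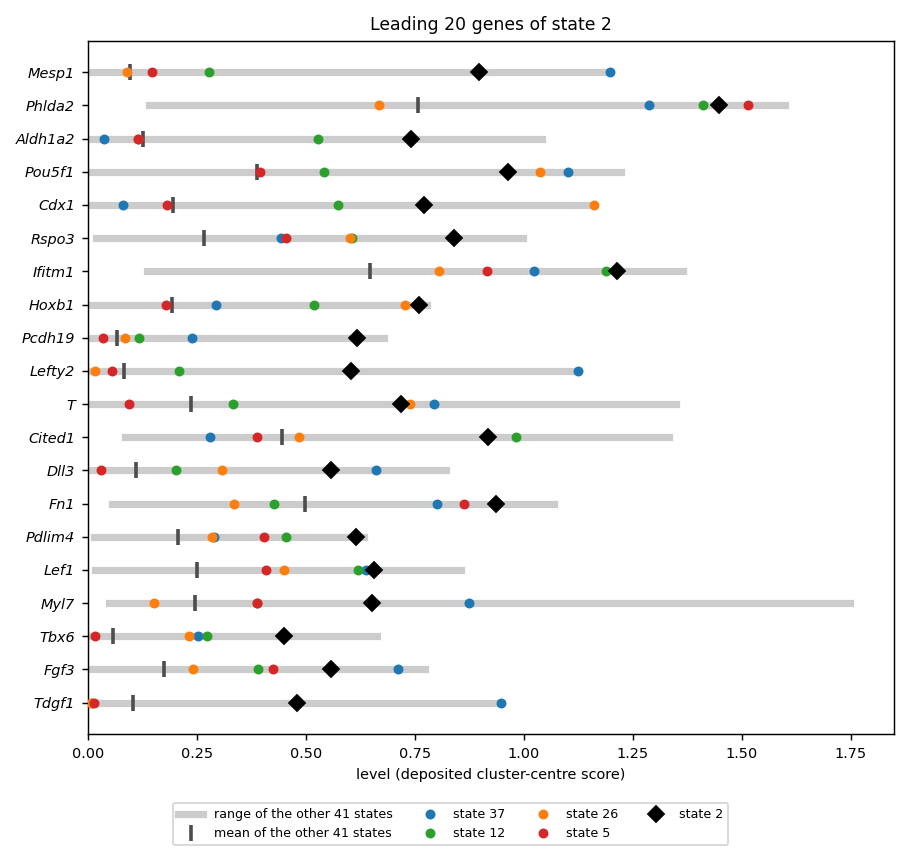
Levels (deposited score, x axis) of the 20 genes with the largest difference between state 2 (black diamonds) and the mean of the other 41 states (dark ticks), with 4 comparator states (coloured points) and the range of the 41 states (grey bars); there are no replicates. State 2 lies inside the grey bar for each of the 20 genes, from Mesp1 (0.90 against a mean of 0.097) to Tdgf1 (0.48 against 0.10).

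State 2 was rarely the highest state. Of all 712 genes only Cachd1, related to calcium channel subunits, peaked there, at 0.41 with state 27 next at 0.40. The median over the 42 states was 12 genes, the range was 1 to 61, and states 6, 10 and 12 also had 1. State 2 came second in 15 genes (median over states 13). Of these 15, 6 peaked in state 30 (Hoxb1, Lef1, Pcdh19, Tbx6, Dll1 and Rftn1) and 3 in state 37 (Mesp1, Lefty2 and Chst7).

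Across genes, state 37 was the most similar state, with a Pearson correlation of 0.711 over gene-centred levels. States 12 (0.591), 30 (0.589) and 26 (0.422) followed, then states 18 (0.333), 27 (0.288) and 3 (0.246), and state 5 ranked 9th (0.229). Of the 41 states, 24 had a correlation below 0, the lowest being state 40 (-0.323). State 2 was in turn the nearest state of states 37 and 27, while the nearest to state 12 was state 30. The points are 712 genes of pooled libraries, not replicates, and no p-value is given.

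**Figure D2:**
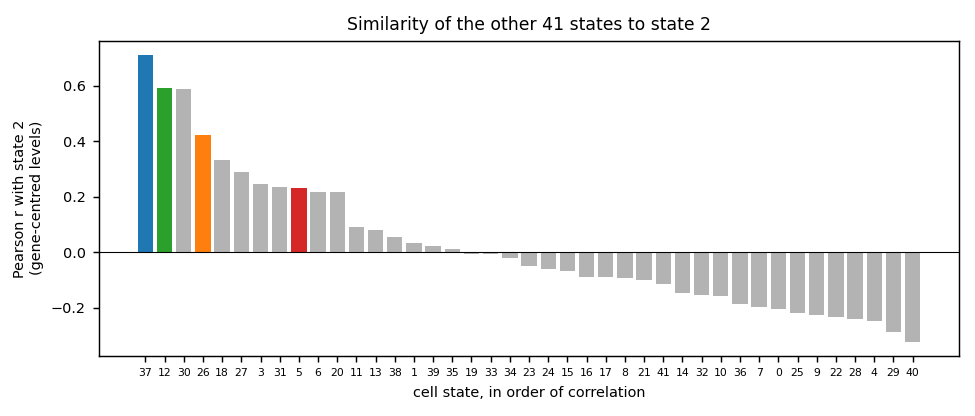
Pearson correlation (y axis) of state 2 with each of the other 41 states (x axis, in order) over gene-centred levels of 712 genes, with states 37, 12, 26 and 5 in colour. The bars run from 0.711 for state 37 to -0.323 for state 40, with a step between state 20 (0.216) and state 11 (0.0893).

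Levels in state 2 lay between those of states 37 and 12 for most genes that separated these states. They differed by at least 0.3 in 66 genes, and state 2 lay strictly between them in 60. Both are the states most similar to state 2, so such a position follows in part from the choice of end points. For the 39 other states the median count was 27 of the 66 genes, and the highest was 40 (state 20). The median position of state 2 was 0.449 of the way from state 37 to state 12 (quartiles 0.232 and 0.640). The 6 exceptions, Aldh1a2, Cdx1, Fn1, Fst and Arg1 among them, were all higher in state 2 than in both.

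Between states 37 and 30, state 2 lay inside in 72 of 79 genes, at a median position of 0.353. Towards state 26 it was 65 of 70 genes at 0.345, and towards state 5 it was 85 of 88 genes at 0.235. For the 39 other states the median counts were 44, 32 and 44 genes in the same order. The highest counts among them were 68 (state 12), 58 (state 3) and 72 (state 12), so states near these end points came close to state 2. These comparisons share states 2 and 37. A centre averages over cells, so an in-between level in each cell and a mixture of cells cannot be told apart.

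A non-negative sum of the other 41 states was fitted to state 2, chosen as a description after the levels had been seen. It gave weight to state 37 (0.465), state 12 (0.225), state 30 (0.161) and state 18 (0.101), and 0.0621 or less to 3 others. The sum left 20.7% of the squared deviations from the mean of the other states. With each state fitted in this way, the share covered for state 2 (0.793) ranked 17th from the highest, and the median over states was 0.722. Of the 712 genes, 4 exceeded the sum by more than 0.3 (Aldh1a2, Cdx1, Pcdh19 and Hoxb1). Aldh1a2 stood at 0.74 against 0.30 in the sum, and Cdx1 at 0.77 against 0.36.

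Compared with state 37, state 2 had higher levels of Aldh1a2, Cdx1 and Cited1 and a lower level of Lefty2. At 0.5, 3 genes were higher in state 2 (0.421% of 712) and 1 was lower (0.14%). The medians of both states differed by 0.036, and once these were subtracted the split was 3 and 3. At 0.3 the counts were 15 (2.11%) and 6 (0.843%). Over the whole table the SD of the difference was 0.105.

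Aldh1a2, which makes retinoic acid in trunk mesoderm (chromosome 9, 71215789 to 71296243), stood at 0.74 in state 2 and 0.038 in state 37. In states 12, 26 and 5 it was at 0.53, 0.11 and 0.11, and only state 18 was higher (1.04). Cdx1 was at 0.77 against 0.08, and Cited1, which encodes a transcriptional co-activator, at 0.92 against 0.28. All 3 genes separated state 2 from state 37 by more than 0.6. Crabp1 (0.81 against 0.44) and Crabp2 (0.44 against 0.072), which bind retinoic acid in the cell, were higher by over 0.3, while Cyp26a1, which degrades it, was lower (0.35 against 0.83). Of 7 measured retinoic acid genes, 3 were thus higher and 1 lower at 0.3.

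Lefty2, a Nodal antagonist and target (chromosome 1, 180893108 to 180899103), was the only gene lower by 0.5, at 0.60 against 1.12. State 2 was nevertheless second of the 42 states, and states 12, 26 and 5 stood at 0.21, 0.017 and 0.055. Tdgf1, the Nodal co-receptor, was at 0.48 against 0.95, and at 0.0088, 0.0076 and 0.014 in states 12, 26 and 5. Lower by over 0.3 were also the homeobox gene Lhx1 (0.35 against 0.79) and the T-box gene Eomes (0.26 against 0.62). Of 4 measured Nodal pathway genes, 2 were lower in state 2 at 0.3 and none was higher. Just outside the limit of 0.5 were Cyp26a1 and Tdgf1 on the lower side and Cdx2 (0.62 against 0.13), Hoxaas3 (0.47 against 0.0045) and Hoxb1 (0.76 against 0.29) on the higher side.

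**Figure D3:**
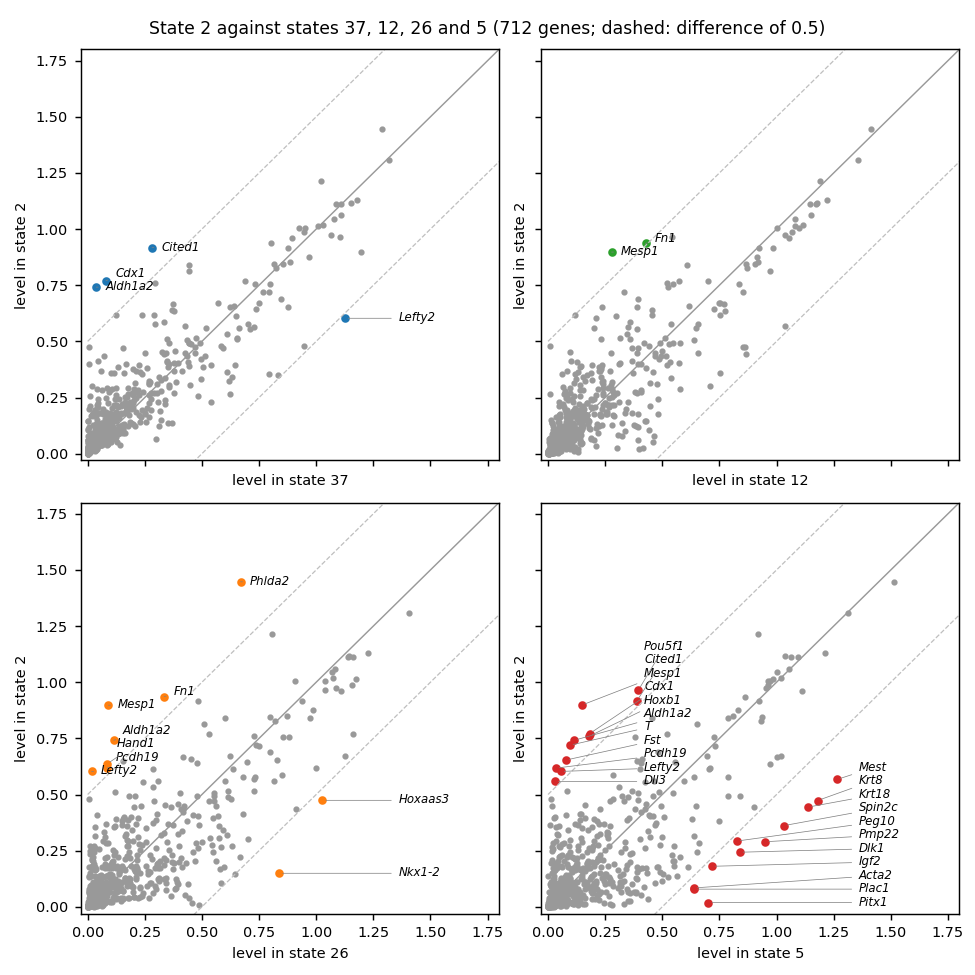
Level in state 2 (y axis) against the level in states 37, 12, 26 and 5 (x axes; deposited score) for 712 genes, one value per gene and state; coloured points differ by 0.5 or more and are named. The numbers of such genes were 4, 2, 9 and 22.

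Streak genes were divided. T, which encodes brachyury, was close to state 37, at 0.72 against 0.79, and states 12, 26 and 5 had 0.33, 0.74 and 0.095. Mixl1 was at 0.32 against 0.62 and ranked 3rd of all states. Sp5, a Wnt target, was at 0.52 (state 37 0.65), Evx1 at 0.26 (0.22), and Fgf8 at 0.32 (0.39). T thus lay within 0.1 of state 37 while Eomes, Mixl1 and Lhx1 lay 0.29 to 0.44 lower. Foxa2, of the anterior streak and endoderm, was at 0.019.

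Of 17 measured mesenchymal and matrix genes, only Snai1 and Fn1 lay over 1 SD above their means (8.99% of all genes did), and the median of the list was -0.24 SD. Twist1 (0.17), Cdh11 (0.14) and Col1a1 (0.012) were among those that did not. Snai1, which represses Cdh1, was at 0.51 against 0.65 in state 37, 0.36 in state 12, 0.12 in state 26 and 0.49 in state 5. Fn1, the fibronectin gene (chromosome 1, 71585520 to 71653200), was at 0.94 against 0.80, 0.43, 0.33 and 0.86. State 2 thus stood above all 4 comparators in Fn1, by 0.074 over state 5. Fgf3 was at 0.56 and the Wnt inhibitor gene Frzb at 0.40, both below state 37 (0.71 and 0.64). The epithelial genes Cdh1 (0.12) and Epcam (0.31) ranked 19th and 23rd of 42, and none of 12 epithelial genes lay over 1 SD above its mean. The neural cadherin gene Cdh2 was at 0.39, with 0.35 in state 37.

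Single genes of the pluripotency and epiblast list were high in state 2, but the list as a whole was not. Pou5f1, the Oct4 gene (chromosome 17, 35506018 to 35510772), was at 0.96, against 1.10 in state 37, 0.54 in state 12, 1.04 in state 26 and 0.40 in state 5. The DNA methyltransferase gene Dnmt3b was at 0.69, near state 26 (0.80) and above state 12 (0.39). By contrast Nanog (0.037), Sox2 (0.05), Utf1 (0.091) and Fgf5 (0.067) were low, and in state 3, led by epiblast genes, the first 3 were at 0.32, 0.24 and 0.64. Of 18 measured genes of the list, only Pou5f1 and Tdgf1 lay over 1 SD above their means, a share close to the 8.99% of all genes, and by its median state 2 ranked 16th of 42.

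Several genes of paraxial mesoderm stood higher than in the 4 comparators, but not all did. Tbx6, which commits cells to paraxial mesoderm, was at 0.45 against 0.25, 0.27, 0.23 and 0.016 in states 37, 12, 26 and 5, and only state 30 was higher (0.66). The Notch ligand gene Dll1 was at 0.37 against 0.21, 0.084, 0.15 and 0.0093, again second to state 30 (0.63). Pcdh19, a protocadherin gene, was at 0.62 against 0.24, 0.12, 0.085 and 0.034. These 3 genes showed the same order, with state 30 first and state 2 second. The clock gene Hes7 (0.40) and the Notch ligand gene Dll3 (0.56) did not: Hes7 was higher in state 26 (0.55) and Dll3 in state 37 (0.66). The later somite genes Meox1 (0.26) and Tcf15 (0.29) were far below state 18 (1.05 and 1.11) but above all 4 comparators. In all, 15 genes (2.11%) exceeded the highest comparator by at least 0.1, led by Pcdh19 (0.38), Rspo3 (0.23) and Aldh1a2 (0.21), and none lay 0.1 below the lowest. Of those 15, 6 belong to the list of paraxial and presomitic mesoderm, which has 15 measured members.

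**Figure D4:**
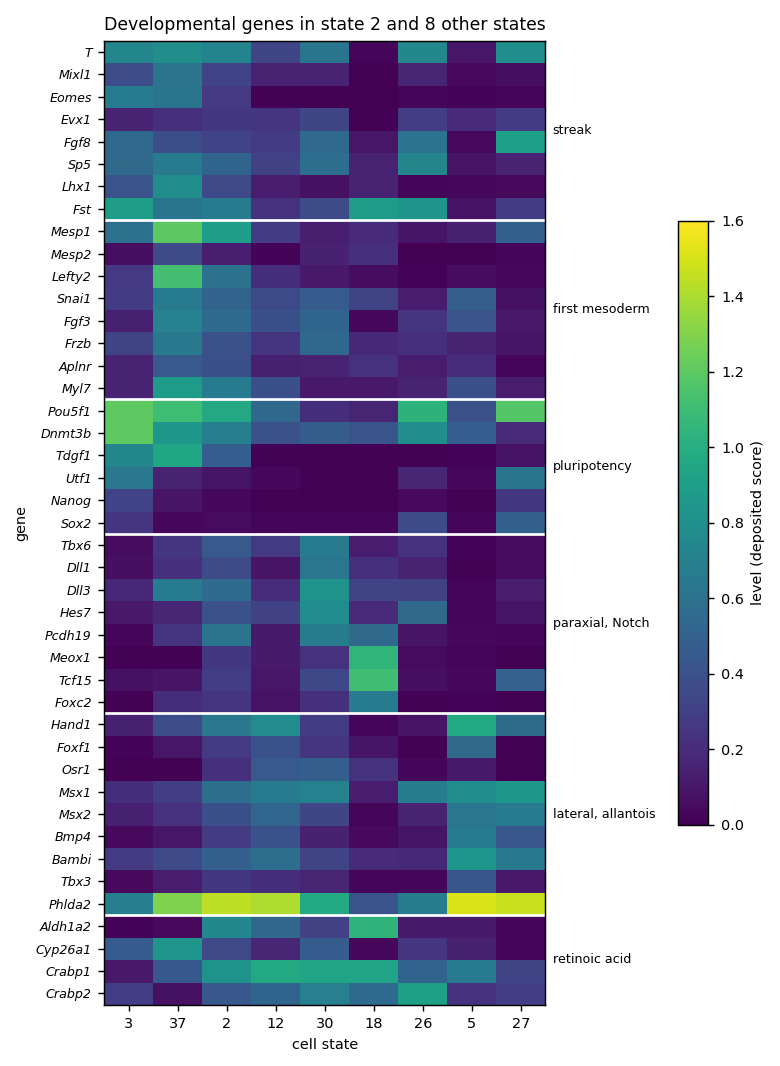
Levels (deposited score, colour) of 43 developmental genes (rows, grouped) in state 2 and 8 other states (columns, one value each). Mesp1, Lefty2 and Pou5f1 are high in state 2 and in state 37 to its left, Hand1 and Crabp1 also in state 12 to its right, and Tbx6, Dll1 and Pcdh19 also in state 30.

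Most Cdx and Hox genes placed state 2 above state 37 and below state 26, and for Hoxb1 it stood above all 4. Cdx1 was at 0.77 in state 2, 0.57 in state 12, 1.16 in state 26 and 0.18 in state 5. Cdx2 was at 0.62 against 0.75, 1.00 and 0.71, and Cdx4 at 0.30 against 0.71, 0.70 and 0.40. State 2 was thus above state 12 in Cdx1 and below it in Cdx2 and Cdx4, with all 3 below state 26 by 0.38 to 0.40. In state 37 the 3 genes were at 0.08, 0.13 and 0.019.

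Hoxb1, the first gene of its cluster to be used, was at 0.76, above states 37 (0.29), 12 (0.52), 26 (0.73) and 5 (0.18). Hoxb2 was at 0.47, above states 37 (0.15), 12 (0.39) and 5 (0.33) and below state 26 (0.53). Of 9 measured Hox genes of groups 6 to 9, Hoxb8 was at 0.15 (state 12 0.43), Hoxb9 at 0.11 (0.44) and Hoxc8 at 0.052 (0.46). With the cluster transcripts Hoxaas3 and Hoxb5os these made 11 features, and all 11 were above state 37 and below state 12. The share of all 712 genes in that position was not counted. The median difference of state 2 over all genes was 0.0083 from state 37 and 0.00069 from state 12. At 0.3, 6 of the 11 were lower than in state 12, against 13 of all 712 genes (1.83%). In state 37 none of the 11 exceeded 0.0048. Hoxaas3 was at 0.47 against 0.86 in state 12 and 1.03 in state 26. Its reads and those of overlapping coding genes can be told apart only by strand, and the counting mode is not given in the sources used here.

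**Figure D5:**
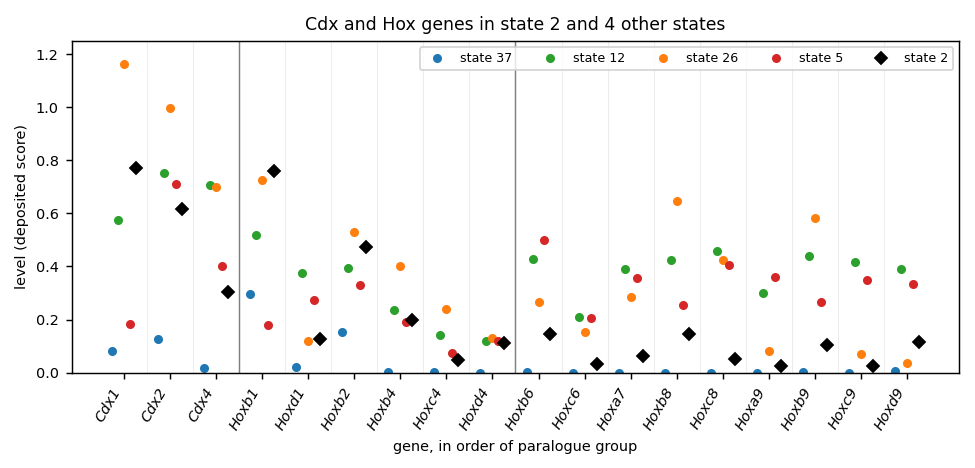
Levels (deposited score, y axis) of 3 Cdx and 15 Hox genes (x axis, by paralogue group) in state 2 (diamonds) and 4 comparator states (points), one value each. State 2 is the highest of the 5 for Hoxb1 (0.76) and below states 12, 26 and 5 from Hoxb6 (0.15) onwards, other than for Hoxd9, where state 26 is lower (0.035 against 0.12).

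Against state 12, few genes passed the limit. Mesp1 (0.90 against 0.28) and Fn1 (0.94 against 0.43) were higher by 0.5 (2 genes, 0.281%), Pcdh19 lay just outside (0.62 against 0.12), and none (0%) was lower. At 0.3, 12 genes were higher (1.69%) and 13 lower (1.83%), with an SD of all differences of 0.112. Among the 12 were T, Pou5f1, Lefty2, Tdgf1, Fst and Dll3, and among the 13 were Hoxc8, Hoxc9, Hoxb9, Hoxa7, Cdx4 and the keratin genes Krt8 (0.47 against 0.85) and Krt18 (0.44 against 0.86). The lateral plate genes Hand1 (0.64 against 0.77), Foxf1 (0.27 against 0.41) and Osr1 (0.21 against 0.44) were lower by less than 0.3. Others of that list, such as Meis2 (0.64 against 0.46) and Snai1 (0.51 against 0.36), were higher. None of its 15 measured genes differed by 0.3 in either direction, and the median difference was -0.062. The globin gene Hba-a1, which has a near-identical copy, was also among the 13 (0.18 against 0.48). The erythroid factor gene Klf1 (0.011) was near 0 in state 2, and Hba-a1 was the only 1 of 16 blood and endothelial genes that differed by 0.3. The part of red cell RNA in these levels was not tested. Xist, the RNA of the inactive X chromosome, was at 0.61 against 0.30.

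Against state 26, 7 genes were higher in state 2 (0.983%) and 2 lower (0.281%), and 18 (2.53%) and 24 (3.37%) at 0.3 (SD of all differences 0.147). The 7 were Mesp1, Phlda2, Aldh1a2, Fn1, Lefty2, Pcdh19 and Hand1, a factor of lateral and extraembryonic mesoderm (0.64 against 0.086). The 2 were Nkx1-2, a homeobox gene of neuromesodermal progenitors (0.15 against 0.84), and Hoxaas3. Of 13 measured genes of the progenitor list, 7 were lower by 0.3 and none was higher. Hes3 (0.0095 against 0.49) and Sox2 (0.05 against 0.37) were among the 7, whereas T differed by 0.020 and Rspo3 was higher (0.84 against 0.60). Pou5f1 was held by both (0.96 and 1.04).

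Against state 5, 11 genes were higher (1.54%) and 11 lower (1.54%), and at 0.3 there were 23 (3.23%) and 42 (5.9%), with an SD of 0.169. The higher genes included T (0.72 against 0.095), Fst, which encodes the activin antagonist follistatin (0.65 against 0.078), Hoxb1 and Dll3. Of 15 paraxial and presomitic genes, 5 were higher by 0.5 and 8 by 0.3. The lower genes included Krt8 (0.47 against 1.18), the hindlimb and allantois factor gene Pitx1 (0.019 against 0.70), Spin2c (0.36 against 1.03) and the smooth muscle gene Acta2 (0.084 against 0.64). Of 9 measured imprinted genes 4 were lower by 0.5: Mest (0.57 against 1.26), Dlk1 (0.24 against 0.84), Igf2 (0.18 against 0.72) and Peg10 (0.29 against 0.83). Phlda2, also imprinted, differed by 0.068. Bmp4 was at 0.28 against 0.66, and its membrane inhibitor gene Bambi at 0.49 against 0.84. Of 18 allantois and extraembryonic mesoderm genes, 9 were lower at 0.3 and none higher.

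Some Wnt and Fgf genes were high in state 2 and others were not. Lef1, a nuclear effector of Wnt signalling, was at 0.66 and second to state 30 (0.86), with 0.64, 0.62, 0.45 and 0.41 in states 37, 12, 26 and 5. Of 11 measured Wnt pathway genes, Lef1, Rspo3, Frzb and Sp5 lay over 1 SD above their means, against 8.99% of all genes. The ligand genes did not, with Wnt5b at 0.22 and Wnt8a at 0.10. By the median of this list state 2 ranked 2nd of 42 (0.71), after state 26 (0.76). The receptor gene Fgfr1 was at 0.51, second of all states after state 1 (0.58). Of 8 Fgf genes, Fgfr1 and Fgf3 lay over 1 SD above their means, and by the median of that list state 2 ranked 7th of 42. The Bmp pathway list ranked 8th of 42 by its median, and Msx1 (0.58) and Msx2 (0.39), which respond to Bmp, ranked 10th and 7th.

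At 0.3, 29 genes (4.07%) lay above the mean of the other 41 states and none (0%) lay below it. The genes furthest below were Hba-a1 (0.18 against a mean of 0.48), the metallothionein gene Mt1 (0.24 against 0.54) and the tight junction gene Cldn6 (0.13 against 0.41). By the median of its list, state 2 ranked 40th of 42 for visceral endoderm, 24th for endoderm, 21st for blood and endothelium, and 16th for both neural ectoderm and heart. None of 16 blood and endothelial, 12 endoderm, 13 neural, 9 surface ectoderm or 11 visceral endoderm genes lay over 1 SD above its mean in state 2, and 1 of 15 cardiac genes did (Myl7, 0.65), against 8.99% of all genes.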

How the data were processed

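Droplet libraries (10x Genomics 3' chemistry, per the labels' protocols) were made from pooled wild-type embryos. Cell Ranger and the build mm10 are named in the submitters' processing notes. The deposited values are scores, which the authors headed as cell state cluster centres. Normalisation, clustering, doublet removal, the logarithm, if any, and the choice of the 712 genes are not given in the sources used here, so differences were taken by subtraction, no fold is given, and low scores may rest on few reads. Totals over the 712 genes were 123.7 in state 2 and 73.6 to 166.0 over all states. Depth and cells per state are unknown.

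Columns were read by state number, and none names a library, so a day 8.5 library whose description says day 8.0 touches no result. Genes were named by rule: those past 0.5 in a comparison (up to 15 a direction), the 20 most above and 10 most below the mean of the others, those ranked 1st or 2nd at 0.25 or more, and members of the lists; others were chosen after their values were seen. Members and lists were chosen with earlier results of these data known. The margins over 4 comparators, positions between states, the weighted sum (scipy 1.17.1) and the motifs were added after the data had been examined. Values of some genes are not reported here. GENCODE M21 gave positions for 704 genes. The counting was tested on simulated data. Alternatives covered the threshold, centring, a minimum mean level of 0.1, the reference and the correlation.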

Additional observations from a re-analysis of the deposited data

How the results depend on the processing

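No paired analysis was possible because the columns carry no sample. For higher and lower genes in turn, a threshold of 0.75 left 0 and 0 against state 37, 0 higher against state 12, 2 and 0 against state 26, 1 and 0 against state 5 and 1 higher than the mean of the others. At 0.3 these were 15 and 6, 12 and 13, 18 and 24, 23 and 42, and 29 higher. Centring each state on its median gave 3 genes lower than in state 37 in place of 1. With a mean level of at least 0.1, 0 genes were lower than in state 37 and 1 than in state 26, because fewer genes were counted. Lefty2, with a mean of 0.084 over the other states, was among those left out. The higher genes were then 5 against state 26, 9 against state 5 and 8 against the mean of the others. Against state 5, 10 genes were lower. Against the highest of the other 41 states 0 genes were higher and 426 lower, which follows from that reference. Without centring of genes the correlations were 0.904 with state 37, 0.890 with state 12 and 0.849 with state 30, where levels shared by all states enter. Spearman's rho with state 30 was 0.640, above that with state 12 (0.616), so the order of these neighbours depends on the measure, and without genes of chromosome X state 37 was again nearest (0.728). The counts are small and rest on single values with no error.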

Other observations

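State 2 was the nearest state of state 27, which was led by germ cell genes, but at a correlation of 0.288, against a median of 0.744 between the 42 states and their nearest states. State 2 itself had 5 nearer states. States 2 and 27 both had high levels of genes that were also high in state 37, such as Ifitm1 (1.21 and 1.37), Phlda2 (1.45 and 1.47), Pou5f1 (0.96 and 1.17) and T (0.72 and 0.80). The germ cell genes Dppa3 (0.0037 and 0.76), Dnd1 (0.076 and 0.80) and Ifitm3 (0.27 and 1.33) set them apart.

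Of 16 blood and endothelial genes none lay over 1 SD above its mean in state 2. Of 15 cardiac genes only Myl7 did, against 8.99% of all 712 genes. In lists this short both counts are near that share. Etv2, a factor of the endothelial and blood lineages, stood at 0.31 in state 2, against 0.30 in state 37, 0.48 in state 12 and 0.45 in state 5, and at 0.96 in state 13. Its target Kdr was at 0.24, with 0.93 in state 32. In state 2 Etv2 lay 0.90 SD and Kdr 0.58 SD above their means over the 42 states. The early blood genes Tal1 (0.047), Gata2 (0.056) and Runx1 (0.026) were each below their mean over the 42 states, whereas Lmo2 (0.22) lay 0.12 SD above. The later endothelial genes Cdh5 (0.006), Plvap (0.01) and Cldn5 (0.005) were near 0. The atrial myosin light chain gene Myl7 was at 0.65, below states 37 (0.88) and 21 (1.75). The cardiac genes Mef2c (0.076), Tnnt2 (0.014), Myh6 (0.0035) and Nkx2-5 (0.013) were below their means, whereas Gata4 (0.18) lay 0.50 SD above.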
